A study of Mus musculus with 2 samples.

Results

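The promoters of the cytosolic ribosomal protein genes were followed through maps of open chromatin in a mouse erythroid cell system. Members were the protein-coding genes of the mm9 annotation with the symbol Rpl or Rps and a number, optionally ending in a, x, l or y, together with Rplp0, Rplp1, Rplp2 and Rpsa; the Rps6k kinases were left out. They came to 80 of 22380 protein-coding genes, 48 named Rpl and 32 named Rps (Rplp and Rpsa included), on 19 chromosomes. The assay was DNase-seq, in which the nuclease DNase I cuts chromatin where it is open and the cut ends are sequenced. The first state was G1E-ER4 cells given 10 nM beta-estradiol for 24 h. These derive from G1E cells and carry the transcription factor Gata1 fused to an estrogen receptor domain, so that estradiol switches Gata1 on and red cell maturation resumes. The second state was untreated G1E cells, erythroid progenitors that lack Gata1. Both are lines of male cells from strain 129. The line, the restored gene, the estradiol and the sample change together, so that what each contributes cannot be separated. Each state had a single sample and a pair of peak lists, called list 1 and list 2 here, and the labels do not say whether these lists came from separate cultures. A two-sided exact permutation test of 2 lists against 2 cannot give a p under 0.3333, so no test between states was made. Differences are set against the gap between lists of the same state.

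Ribosomal proteins assemble with ribosomal RNA into the small subunit, which reads the messenger RNA, and the large subunit, which joins the amino acids. Their genes are among the most strongly transcribed in growing cells. Many of their messenger RNAs begin with a run of pyrimidines, the terminal oligopyrimidine tract, through which growth signals control their translation. In humans, loss of a single copy of any of several of these genes impairs red cell formation, as in Diamond-Blackfan anemia.

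Every list held 100000 peaks, and a peak's percentile (100 for the strongest) gives the place of its signal within its own list. G1E-ER4 list 1 stood apart: 61.1% of its strongest 10% of peaks lay within 1000 bp of a protein-coding start, against 74.2 to 81.4% in the other lists. Mean GC content around its summits was 49.7%, against 52.1 to 55.0%. Klf1, Epor and 7 others of 11 erythroid markers had a peak at the promoter in every list; Alas2 had one in G1E-ER4 list 2 alone and Hbb-b1 in all but G1E list 1. Of 18 markers of lymphoid, myeloid, liver, fibroblast and nerve cells, 4 had one in every list (Pax5, Csf1r, Apoa1 and Col1a1) and 8 in none.

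Most ribosomal protein promoters were open in both states. A promoter peak, meaning a peak that reaches within 1000 bp of an annotated start, was present in all 4 lists for 73 of 80 members (91.2%, Wilson 95% interval 83.0 to 95.7%), against 52.4% of all protein-coding genes. It was present for 73 and 77 members in G1E-ER4 lists 1 and 2 (59.8 and 67% of all genes), and for 77 in each G1E list (64 and 59.8%). No member had a peak in both G1E-ER4 lists and neither G1E list, where 1.18% of all genes did, and none had the reverse pattern, where 0.804% did. A count of 0 of 80 leaves a share of up to 4.58% within its Wilson interval.

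The 3 members without a promoter peak in any list were Rpl10l, Rpl39l and Rpl3l, all paralogs of another member. Of all genes, 27.3% had none. Rpl10l (chr12:67384368-67385388) is a single-exon copy of the X-linked Rpl10 that acts in the testis. Rpl39l (chr16:10170319-10175004) is a paralog of the X-linked Rpl39, also best known from the testis. Rpl3l (chr17:24864774-24873094) takes the place of Rpl3 in skeletal and heart muscle. The genes they resemble had a promoter peak in every list, though that of Rpl39 was weak in G1E-ER4 list 1, at percentile 7.69 and 349 bp wide. Rpl10, which joins the large subunit late in its maturation, stood at percentiles 87.9 and 89.1 in G1E-ER4, against 81.2 and 88.2 in G1E. Rpl3, a large subunit protein close to the catalytic centre, stood at 88.5 and 92.7 in G1E-ER4, against 87.1 and 92.6 in G1E. The states overlapped at both genes. Rps27l, a paralog of Rps27, was open too, at 94.8 and 94.6 in G1E-ER4, against 97.1 and 98.3 in G1E, so an l at the end of the symbol does not by itself mark a closed promoter.

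The promoters of closed paralogs and of open members are printed so that they can be read side by side. The sequences are RefSeq promoters (GRCm38.p6 table) placed on mm9 by exact match, 5′ to 3′, from 100 bases before to 30 bases after the RefSeq start. Capitals mark CCGGAA, the core bound by ETS factors such as GABP, and AAGATGG, bound by YY1, on either strand, and, on the gene's own strand, a run in which 8 or more C or T follow from a base within 20 bases of the start, shown in its full length.
Rpl10, chrX:71516055-71516184, plus strand: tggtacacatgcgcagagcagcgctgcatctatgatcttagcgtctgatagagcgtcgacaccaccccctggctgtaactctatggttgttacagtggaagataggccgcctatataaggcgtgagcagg
Rpl10l, chr12:67385359-67385488, minus strand: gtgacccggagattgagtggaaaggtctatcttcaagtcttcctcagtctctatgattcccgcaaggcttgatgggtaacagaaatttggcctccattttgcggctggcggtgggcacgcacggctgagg
Rpl39, chrX:34625188-34625317, minus strand: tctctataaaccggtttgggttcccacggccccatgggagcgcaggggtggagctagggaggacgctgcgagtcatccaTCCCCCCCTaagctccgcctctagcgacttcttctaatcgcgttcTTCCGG
Rpl39l, chr16:10170221-10170350, plus strand: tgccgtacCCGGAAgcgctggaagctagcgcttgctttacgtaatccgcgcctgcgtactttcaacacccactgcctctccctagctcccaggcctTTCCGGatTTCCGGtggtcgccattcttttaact
Rpl13a, chr7:52384086-52384215, minus strand: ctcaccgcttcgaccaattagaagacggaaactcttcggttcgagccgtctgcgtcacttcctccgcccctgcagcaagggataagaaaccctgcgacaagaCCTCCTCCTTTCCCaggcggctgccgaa
Rpl11, chr4:135609279-135609408, minus strand: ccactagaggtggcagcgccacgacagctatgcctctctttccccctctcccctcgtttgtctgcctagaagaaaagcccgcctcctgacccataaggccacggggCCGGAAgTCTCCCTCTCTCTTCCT
Rps27, chr3:90017541-90017670, minus strand: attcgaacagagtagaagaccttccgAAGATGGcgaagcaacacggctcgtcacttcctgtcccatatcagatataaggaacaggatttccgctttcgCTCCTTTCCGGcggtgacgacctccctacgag
Rpl4, chr9:64021094-64021223, plus strand: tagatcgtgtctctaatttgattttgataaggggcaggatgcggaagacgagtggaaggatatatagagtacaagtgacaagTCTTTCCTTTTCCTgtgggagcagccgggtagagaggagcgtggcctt
The closed Rpl39l carries CCGGAA at 3 places and no pyrimidine run by this rule, whereas the open Rpl39 has both. At Rpl39 a further run that meets the rule, cttcttct after the start, is not in capitals. Rpl39l holds a run of C and T, cctctccct, that lies mostly beyond 20 bases before the start and so does not count. The contrast between the 2 genes therefore depends on the limits of the rule. Neither Rpl10 nor its closed copy Rpl10l has any of these marks. Within 500 bp of the start, 95.7% of 20-base words at Rpl39l, 92.2% at Rpl3l and 58.6% at Rpl10l occur at 1 place in mm9. Over members the median was 89.7% and the lowest 55.2%, so Rpl10l stood near the lowest. The part of tag placement in the missing peaks was not tested.

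A further 4 members, Rpl36a, Rpl4, Rps20 and Rps23, had a promoter peak in every list but G1E-ER4 list 1, a pattern of 2.87% of all genes. Rps20, a protein of the small subunit head (chr4:3758481-3762812), stood at 93.7 in G1E-ER4 list 2, against 92.4 and 89.7 in G1E. Rps23, at the decoding centre (chr13:91062727-91064329), stood at 89.995 in G1E-ER4 list 2, against 83.9 and 87.4 in G1E. Rpl4, which lines the exit tunnel (chr9:64021194-64026369), stood at 86.2 in G1E-ER4 list 2, against 72.3 and 79.6 in G1E. The X-linked Rpl36a (chrX:131120193-131122601) stood at 86.1 in G1E-ER4 list 2, against 72.996 and 76.4 in G1E. At each of the 4, the G1E-ER4 list that had a peak ranked it above both G1E lists, while the other G1E-ER4 list had none. How often this holds among all genes with the pattern is not given. Over all genes with a peak in all 4 lists, G1E-ER4 list 2 also stood above the mean of the G1E lists, by a median of 0.861 points.

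**Figure D1:**
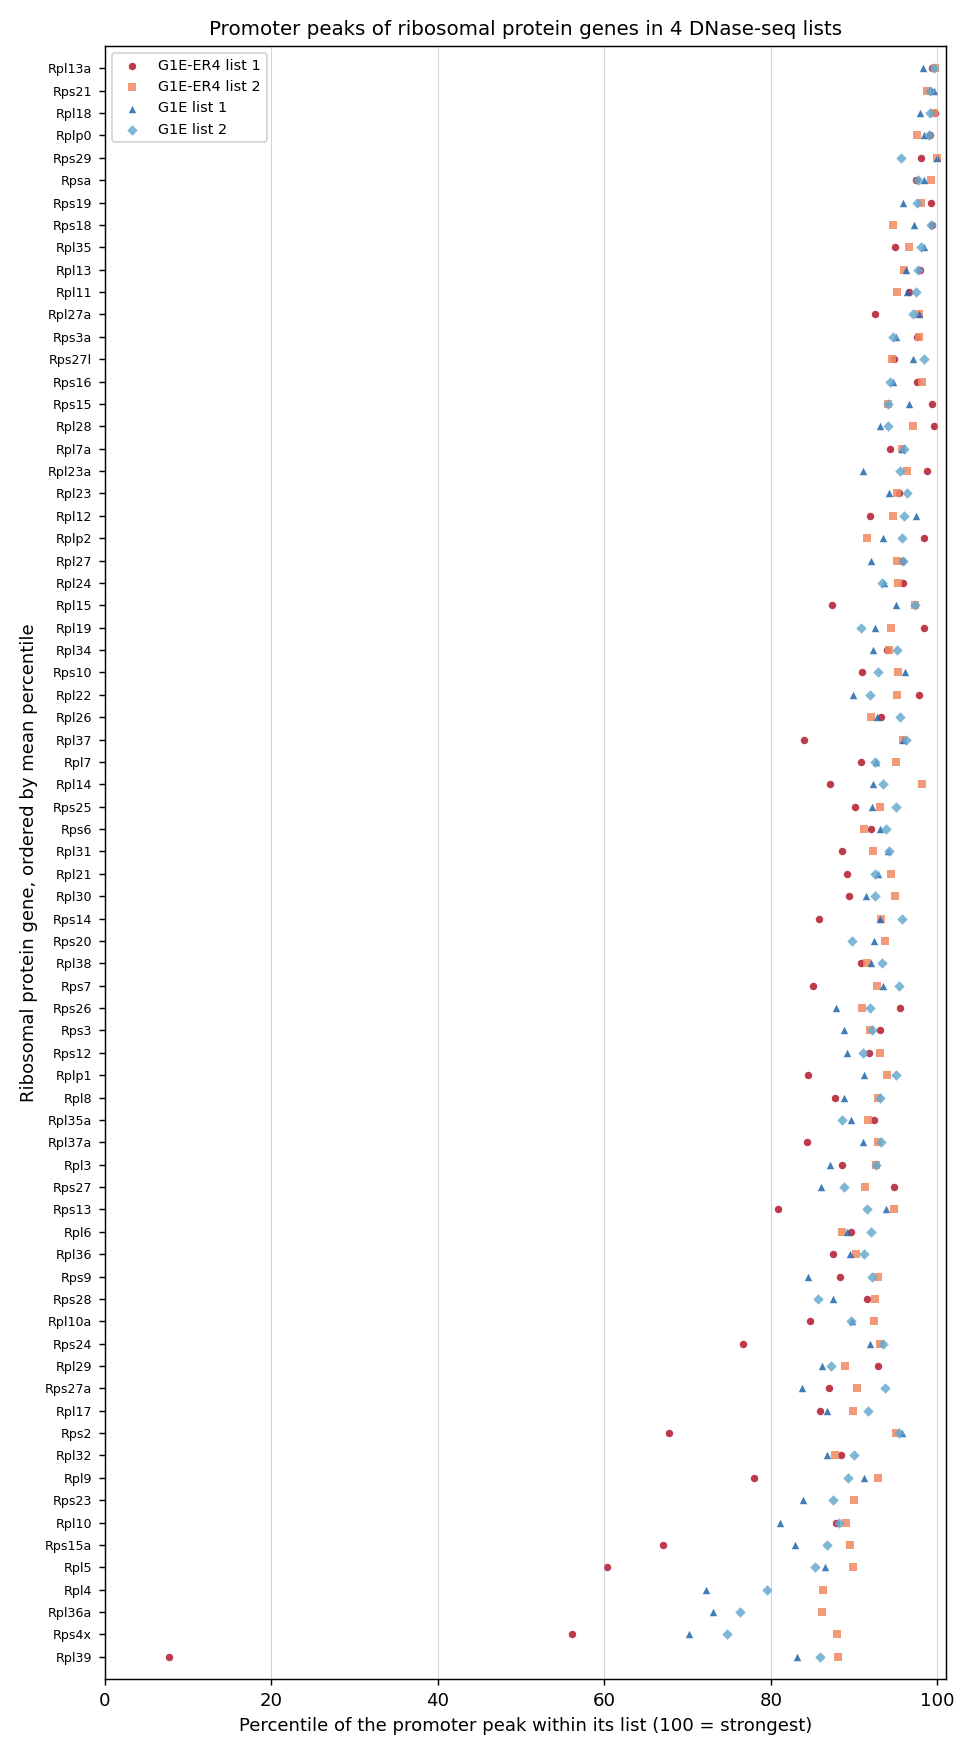
Percentile of the promoter peak (horizontal axis, 100 for the strongest peak of a list) for 72 of the 77 ribosomal protein genes with a peak in at least 1 list, ordered by mean percentile; each point is 1 peak list. Of the points under percentile 80, 7 are from G1E-ER4 list 1, none from G1E-ER4 list 2 and 3 from each G1E list, and the lowest is Rpl39 at 7.69 in G1E-ER4 list 1.

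Open members ranked high and close to other open genes. Over the 73 members with a peak in all 4 lists, the median percentile was 92.4 and 94.5 in G1E-ER4, against 92.7 and 94.01 in G1E. Over all genes with a peak in all 4 lists it was 91.5 and 94.5 in G1E-ER4, against 93.8 and 93.9 in G1E. In the strongest 10% stood 61.6 and 87.7% of the 73 in G1E-ER4, against 69.9 and 83.6% in G1E; for all genes with a peak in all 4 lists the shares were 56.1 and 76.6% in G1E-ER4, against 70.7 and 70.5% in G1E. The strongest 10% of all 4 lists held 37 of 80 members (46.2%), against 25.2% of all genes. Among genes with a peak in all 4 lists, the shares were close, 50.7% of members against 48.1% of all. The order of members was held in common to differing degrees: Spearman's rho over the 73 members was 0.577 between the G1E-ER4 lists and 0.840 between the G1E lists, and ran from 0.548 to 0.774 across states. The lists share the sequence of these promoters, so these values are a description.

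Among the 8 highest of the 73 by mean percentile were Rpl13a, Rps21, Rpl18, Rplp0, Rps29, Rpsa and Rps19. Rpl13a, a large subunit protein also known in human cells for silencing inflammatory messenger RNAs (chr7:52380928-52391787), stood at 99.4 and 99.8 in G1E-ER4, against 98.3 and 99.6 in G1E. Rps21, a small subunit protein (chr2:179992082-179993150), stood at 99.2 and 98.7 in G1E-ER4, against 99.6 and 99.1 in G1E. The states overlapped at both. Rplp0 is the base of the stalk that recruits elongation factors to the large subunit, and Rplp1 and Rplp2 bind to it. Rplp0 stood at 99.1 and 97.6 in G1E-ER4, against 98.4 and 99.01 in G1E. Rplp1 stood at 84.4 and 93.9 in G1E-ER4, against 91.2 and 95.004 in G1E. Rplp2 stood at 98.4 and 91.5 in G1E-ER4, against 93.4 and 95.7 in G1E. Rpsa, a small subunit protein also known as the laminin receptor precursor, stood at 97.4 and 99.2 in G1E-ER4, against 98.4 and 97.6 in G1E. None of these 4 separated the states, and the 3 stalk genes did not rank alike.

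The rank of Rps29 came, in 3 of the 4 lists, from a peak whose summit lay inside another annotated gene on the opposite strand, so the peak can belong to that gene. Rps29, a zinc-binding protein of the small subunit head (chr12:70258709-70260173), stood at percentile 98.1 in G1E-ER4 list 1 and held the peak of rank 5 in G1E-ER4 list 2, against rank 28 in G1E list 1 and percentile 95.6 in G1E list 2. Of the 20-base words within 100 bp of the summit, 36.3 and 35.2% occur at 1 place in mm9 for the G1E-ER4 lists, against 33.5 and 86.3% for the G1E lists. No other member summit was under 50%, and the median over members was 97.3 to 97.8% in each list. Tags matching more than 1 place were retained by the authors, and their part in this rank was not tested.

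The lowest of the 73 members with a peak in all 4 lists were Rpl39, Rps4x, Rpl5, Rps15a, Rpl10, Rpl9, Rpl32 and Rps2. Rpl39, a small protein of the exit tunnel (chrX:34622515-34625397), stood at 7.69 and 88.04 in G1E-ER4, against 83.2 and 85.9 in G1E. Rps4x, the X-linked form of a small subunit protein (chrX:99380280-99384733), stood at 56.1 and 87.9 in G1E-ER4, against 70.1 and 74.7 in G1E. Rpl5, which binds the 5S ribosomal RNA together with Rpl11 and with it can hold the p53 regulator Mdm2 (chr5:108329521-108338024), stood at 60.3 and 89.9 in G1E-ER4, against 86.5 and 85.3 in G1E. G1E-ER4 list 1 held the lowest value at these 3, and G1E-ER4 list 2 the highest. Rpl11, the partner of Rpl5, ranked far higher, at 96.6 and 95.1 in G1E-ER4, against 96.3 and 97.4 in G1E. The 4 X-linked members (Rpl10, Rpl36a, Rpl39 and Rps4x) all stood in the lower part of the order of the 77 members with a peak. All X-linked genes with a peak in all 4 lists had median percentiles of 76.6 and 91.2 in G1E-ER4, against 88.0 and 88.9 in G1E. Genes outside chromosomes 7, 12 and X had 91.5 and 94.6 in G1E-ER4, against 93.9 in both G1E lists. Male cells carry a single X, and the part of copy number was not tested.

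Between the states, members differed little in rank within the whole lists. The lists of the states overlapped at 48 of 73 members (65.8%), against 71.1% of all genes with a peak in all 4 lists. The median over the 73 of the mean G1E-ER4 minus the mean G1E percentile was -0.33 points, against -0.616 over all genes with a peak in all 4 lists. It ran from -1.76 to 1.65 over the 4 pairings of a G1E-ER4 with a G1E list (SD 1.41), a spread larger than the difference itself. With G1E-ER4 list 2 alone against the G1E lists, the median over the same 73 was 1.11 points, against 0.861 over all genes, so its sign changes without G1E-ER4 list 1. Its sign also changes when peaks are ranked among promoter peaks alone, as given in the closing section. The median absolute difference between states was 2.05 points, beside a median gap of 2.96 points between the G1E-ER4 lists and 1.87 between the G1E lists. A gap over 10 points separated the G1E-ER4 lists at 10 members, and the G1E lists at 1, Rps27a, which encodes a ribosomal protein fused to ubiquitin. The share of all genes with such a gap is not given, so these counts do not set the members apart from other genes.

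**Figure D2:**
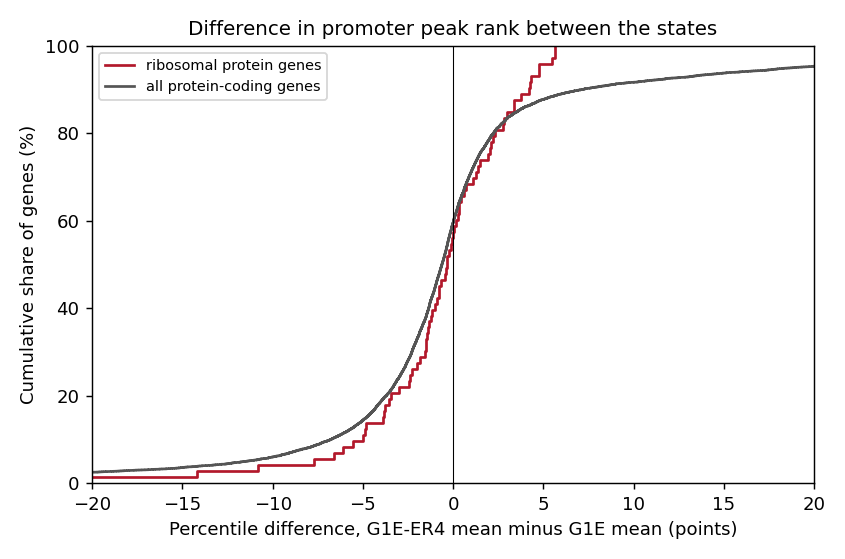
Cumulative share of genes (vertical axis, %) by the mean G1E-ER4 minus the mean G1E percentile (horizontal axis, points, shown from -20 to 20) for the 73 ribosomal protein genes and all 11722 protein-coding genes with a promoter peak in all 4 lists. The medians are -0.33 and -0.616; the highest member is at 5.63, and Rpl39, at -36.7, lies outside the range shown.

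Both G1E-ER4 lists ranked above both G1E lists at 16 of 73 members (21.9%, Wilson 95% interval 13.97 to 32.7%), against 15.8% of all genes. They ranked below both at 9 (12.3%, 6.62 to 21.8%), against 13.1%. Both intervals hold their background share when peaks are ranked within the whole lists. Ranked among promoter peaks alone, more members ranked higher, as given in the closing section. Among the members ranked higher, the clearest separation was at Rps28, a small protein near the messenger RNA exit (chr17:33955972-33961507), at 91.6 and 92.6 in G1E-ER4, against 87.5 and 85.6 in G1E, a mean difference of 5.51 points. Rpl22, known in mice for its role in T cell development (chr4:151699851-151708180), stood at 97.8 and 95.2 in G1E-ER4, against 89.9 and 91.9 in G1E (5.63 points). Rps27, a zinc finger protein of the small subunit (chr3:90016593-90017573), stood at 94.8 and 91.3 in G1E-ER4, against 86.03 and 88.8 in G1E (5.63 points). Its paralog Rps27l ranked lower in both G1E-ER4 lists, by a mean of -3.02 points. Rpl19, which takes part in a bridge between the subunits, stood at 98.4 and 94.5 in G1E-ER4, against 92.5 and 90.8 in G1E, and Rpl28 stood at 99.6 and 97.02 in G1E-ER4, against 93.1 and 94.01 in G1E. Rpl23a and Rpl29 were also among the 8 largest differences, which ran from 4.23 to 5.63 points. For Rpl23a the chosen peak of G1E-ER4 list 2 has its summit far from the start, at 3013 bp. With peaks limited to 500 bp from a start, the difference of Rpl23a was 1.34 points and its lists overlapped between the states. In that setting 15 members ranked higher.

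Among the members that both G1E-ER4 lists ranked below both G1E lists, the largest difference was at Rps2, near the entry of the messenger RNA channel (chr17:24855061-24858874), at 67.7 and 95.01 in G1E-ER4, against 95.7 and 95.4 in G1E. Its mean difference of -14.2 points was -0.568 without G1E-ER4 list 1. Rps27l separated most evenly, with -2.26 points between the nearest lists of the states. Rps7 (chr12:29315712-29320818) stood at 85.1 and 92.8 in G1E-ER4, against 93.5 and 95.4 in G1E. Rps6, the substrate of the S6 kinases, stood at 92.1 and 91.2 in G1E-ER4, against 93.1 and 93.8 in G1E, a mean difference of -1.85 points. Rpl31, Rpl12 and Rpl35 were also among the 8 largest. Rpl38, which in mice is needed for the translation of certain Hox messenger RNAs, ranked lower too, by a mean of -1.54 points.

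Chromosome 7 held 6 of the 16 members ranked higher, among them Rpl18, Rpl28, Rps16 and Rps19. It carries 14 members, and the 6 are 42.9% of them, against 39% of all its genes with a peak in all 4 lists. None of its members ranked lower, where 8.24% of its genes did. Over all genes the median difference was 1.26 points on chromosome 7, -3.34 on chromosome 12 and -4.22 on X. Outside chromosomes 7, 12 and X, 10 of 54 members ranked higher (18.5%, against 14.3% of all genes there) and 8 ranked lower (14.8%, against 12.2%). Of the 2 open members on chromosome 12, Rps7 ranked lower and Rps29 overlapped.

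**Figure D3:**
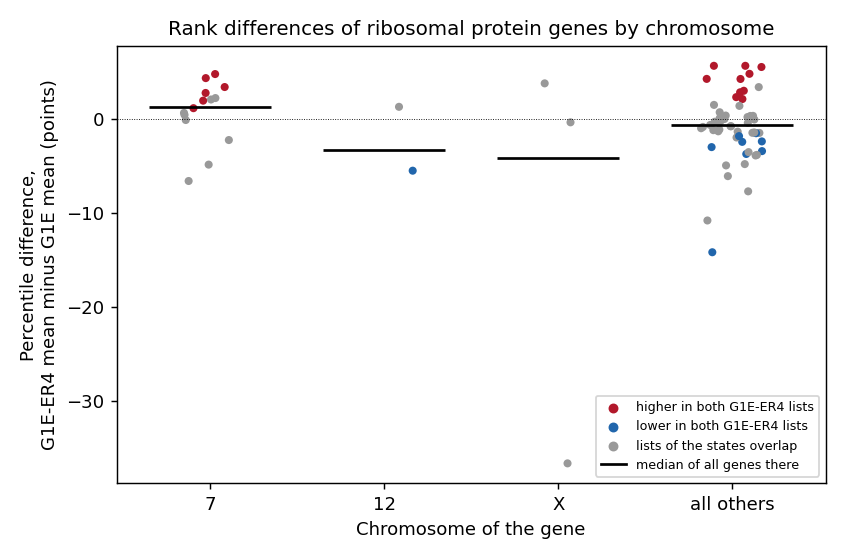
Mean G1E-ER4 minus mean G1E percentile (vertical axis, points) of the 73 ribosomal protein genes on chromosomes 7, 12, X and all others; each point is 1 gene, coloured by whether both G1E-ER4 lists ranked above or below both G1E lists, and black lines are medians over all genes there (1.26, -3.34, -4.22 and -0.65 points). On chromosome 7, 6 of 14 members are in the higher class and none in the lower.

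The 18 members whose human counterparts are Diamond-Blackfan anemia genes on the list used were open in all 4 lists. Of these, 5 ranked higher in both G1E-ER4 lists (Rpl18, Rpl35a, Rps19, Rps27 and Rps28) and 3 ranked lower (Rpl31, Rpl35 and Rps7), beside 11 and 6 of the other 55 members and 15.8 and 13.1% of all genes. The median difference was -0.573 points for the 18 and -0.33 for the 55. Rps19, the gene most often mutated in that anemia (chr7:25669390-25674825), stood at 99.3 and 98.04 in G1E-ER4, against 95.9 and 97.6 in G1E, a mean difference of 1.93 points. With the peak whose summit is nearest to a start in place of the strongest peak, the difference of Rps19 was -31.4 points, so its direction depends on which peak is taken. Rpl35a stood at 92.4 and 91.7 in G1E-ER4, against 89.6 and 88.6 in G1E. Rps24 showed the gap within a state, at 76.7 and 93.2 in G1E-ER4, against 91.9 and 93.4 in G1E. By subunit, beside the same shares of all genes, 8 of 30 open Rps members ranked higher and 5 lower, with a median difference of -0.106 points, and 8 of 43 Rpl members ranked higher and 4 lower, with a median of -0.663.

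The width of promoter peaks differed more between lists than between states. The median width over members was 1475 and 2205 bp in G1E-ER4, against 1496 and 2692 bp in G1E. Over all genes with a peak in all 4 lists it was 1575 and 2081 bp in G1E-ER4, against 1608 and 2317 bp in G1E. The median log2 ratio of mean widths, G1E-ER4 over G1E, was -0.16 for members, under the SD of 0.63 over the 4 pairings of lists, and -0.06 for all genes. Both G1E-ER4 lists were wider at 5 members (6.85%, against 11.8% of all genes) and narrower at 9 (12.3%, against 9.22%). The 5 were Rpl18, Rpl22, Rpl28, Rps21 and Rpsa. Rpl18 (chr7:52970827-52976205) had peaks of 11006 and 10618 bp in G1E-ER4, against 1166 and 1348 bp in G1E; in both G1E-ER4 lists the peak spanned the whole gene, which neither G1E list did. Rank and width need not go together: Rps28, which ranked higher in G1E-ER4, had peaks of 835 and 1129 bp in G1E-ER4, against 1916 and 2605 bp in G1E. Of the 73 members, the widest peaks on average belonged to Rpl18, Rps15, Rpl10a and Rps7, and the narrowest to Rps4x, Rps27, Rpl39, Rpl5 and Rpl6.

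Member summits lay within 150 bp of an annotated start more often than those of all genes with a promoter peak in the same list. The median distance from the summit to the nearest annotated start was -49 and -35 bp in G1E-ER4, against -43 and -45 bp in G1E (negative is upstream). Over all genes with a peak in all 4 lists it was close to this, at -52 and -29 bp in G1E-ER4, against -31 and -41 bp in G1E. Within 150 bp of a start lay 86.3 and 83.1% of member summits in G1E-ER4, against 88.3% in both G1E lists. For all genes with a promoter peak the shares were 55.4 and 67.3% in G1E-ER4, against 66.6 and 64.2% in G1E. Upstream of the start lay 83.6 and 74.0% of member summits in G1E-ER4, against 77.9 and 81.8% in G1E. For all genes with a promoter peak it was 71.8 and 63.4% in G1E-ER4, against 64.2 and 69.3% in G1E. With 1 start per gene, its 5′ end, the median distance over members was -23 bp, as it was for all genes. The share within 150 bp is not given for that setting, nor for all genes with a peak in all 4 lists. A larger number of annotated starts can only shorten the distance to the nearest, and its part in the shares was not tested. At Rpl11 the summits lay at -57 and -36 bp from the RefSeq start in G1E-ER4, against -37 and -43 bp in G1E, inside the stretch printed above. At Rpl13a they lay at -157 and -133 bp in G1E-ER4, against -167 and -154 bp in G1E, just before it.

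**Figure D4:**
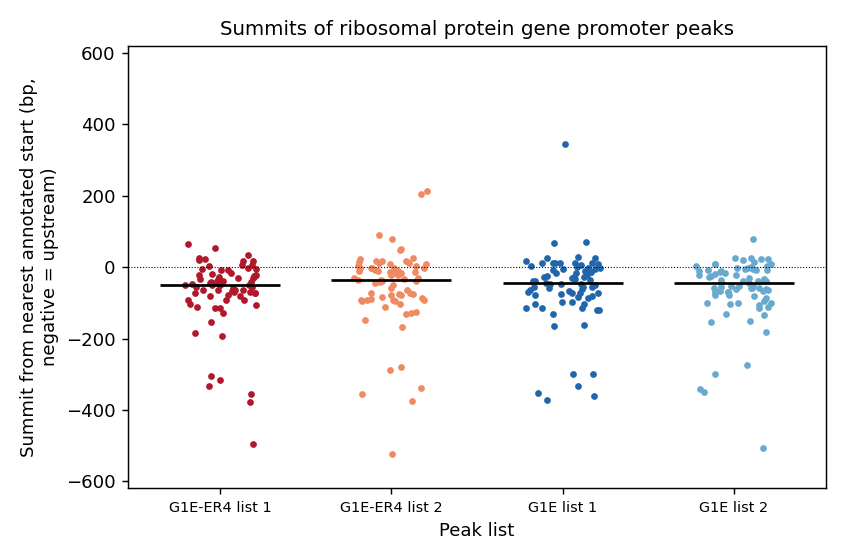
Distance of the promoter peak summit from the nearest annotated start (vertical axis, bp; negative is upstream) for ribosomal protein genes in each list (horizontal axis); points are genes and black lines are medians, at -49, -35, -43 and -45 bp. In all, 6 summits beyond 600 bp are not drawn.

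Member promoters held certain short sequences more often than other promoters. RefSeq promoters, 250 bases before to 50 after the start, were found for 59 of 80 members (71 promoters). The same kind of pyrimidine run was in 32 of the 71 (45.1%, Wilson 95% interval 34.05 to 56.6%), against 18.3% of 18191 promoters of all protein-coding genes and 17.7% of the 10632 of genes with a peak in all 4 lists. CCGGAA, searched on both strands like the motifs that follow, was in 33 (46.5%, 35.4 to 57.96%), against 18.8% of all and 27.04% of open promoters. AAGATGG was in 11 (15.5%, 8.88 to 25.7%), against 6.30% of all and 7.01% of open promoters. GGGCGG, the Sp1 box, was in 57.7%, against 47.9% of all and 63.9% of open promoters. CCAAT was in 31.0%, against 38.2 and 37.8%. TATAAA was in 8.45%, against 12.1 and 6.48%, and CACGTG, the E-box bound by Myc, in 11.3%, against 8.14 and 10.3%. The forms AGATAA and TGATAA, which Gata1 can bind, were in 7.04 and 5.63% of member promoters, against 9.41 and 7.17% of all and 5.99 and 4.05% of open ones. Several promoters of 1 gene can overlap, and the intervals count each promoter as separate, so they can be too narrow. A match is a run of letters and not a bound site, and the pyrimidine run and CCGGAA can overlap, as at Rps27.

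**Figure D5:**
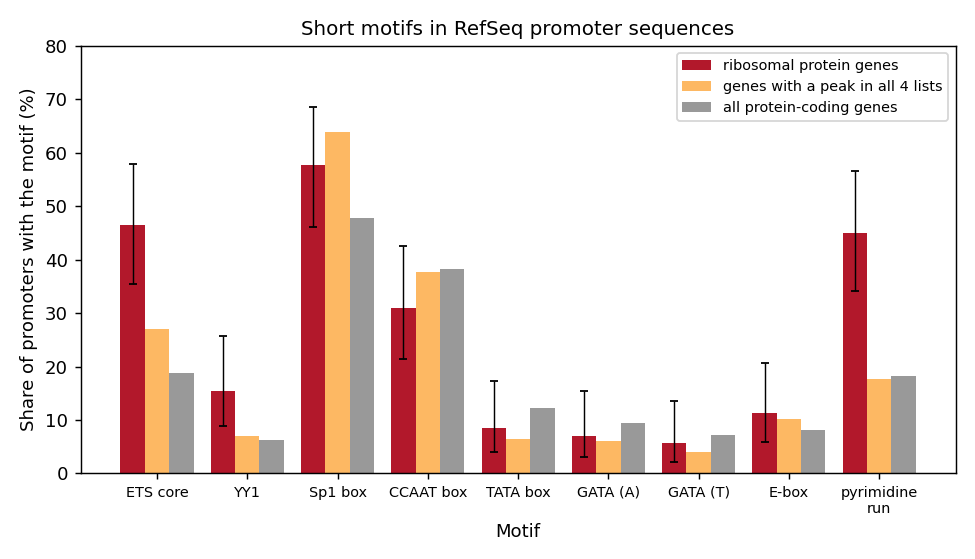
Share of RefSeq promoters (vertical axis, %) that hold each motif for ribosomal protein genes (71 promoters; error bars are Wilson 95% intervals), genes with a promoter peak in all 4 lists (10632) and all protein-coding genes (18191). CCGGAA and the pyrimidine run stand at 46.5 and 45.1% of ribosomal protein promoters, above both other groups.

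Within each list, members with and without CCGGAA or a pyrimidine run had median percentiles within a few points of each other. The 31 with CCGGAA had median percentiles of 93.1 and 94.5 in G1E-ER4, against 93.4 and 95.4 in G1E, and the 22 without had 92.2 and 94.3 in G1E-ER4, against 92.5 and 93.3 in G1E. The 30 with a pyrimidine run had 92.5 and 93.7 in G1E-ER4, against 92.8 and 93.9 in G1E, and the 23 without had 93.1 and 94.7 in G1E-ER4, against 93.6 and 94.3 in G1E. The median difference between the states was -1.22 points with CCGGAA and 0.0145 without. For the pyrimidine run it was -1.08 points with and -0.33 without. The 9 members with AAGATGG had 94.8 and 92.8 in G1E-ER4, against 89.9 and 91.9 in G1E, a median difference of 2.98 points, and the 44 without had 91.99 and 94.5 in G1E-ER4, against 93.3 and 94.1 in G1E, a median of -1.08. This contrast was picked out after the values were seen and carries no test. GC content within 500 bp of the 5′ end had a median of 56.9% over open members and 59.04% over all open genes, and the ratio of observed to expected CpG was 0.814 and 0.731. The 36 members with the higher GC content had median percentiles of 94.2 and 94.6 in G1E-ER4, against 94.8 and 95.3 in G1E, and the 37 with the lower had 90.8 and 93.1 in G1E-ER4, against 91.2 and 92.6 in G1E.

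Other genes lie within or next to many members. Small nucleolar RNA genes, whose products guide the modification of ribosomal RNA, lie on the same strand inside 30 of the 80 members, 58 of them in all. The 28 open hosts had median percentiles of 92.2 and 94.9 in G1E-ER4, against 93.6 and 94.7 in G1E, and the 45 other open members 92.4 and 93.9 in G1E-ER4, against 92.5 and 93.8 in G1E. A protein-coding gene starts in the opposite direction within 1000 bp upstream of 8 members (10%, against 7.15% of all genes). At Rps28 this is Ndufa7, 29 bp away, and at Rps27 it is Rab13, 44 bp away, so the peaks of these members can belong to either gene.

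Most annotated copies of these genes lacked a peak. There were 162 genes named as -ps copies, annotated mostly as pseudogenes and otherwise mainly as protein-coding. A peak within 1000 bp of the start was present in all 4 lists at 8 (4.94%, Wilson 95% interval 2.52 to 9.44%), against 52.4% of all protein-coding genes. None was present in any list at 119 (73.5%), against 27.3% of all protein-coding genes. Whether short tags can be placed uniquely at these copies was not measured. Of the 135 that lie over 5000 bp from another protein-coding start, 7 had a peak in all 4 lists. Among these were Rpl30-ps6, annotated as protein-coding, at 85.9 and 90.4 in G1E-ER4, against 89.5 and 87.6 in G1E, and Rpl38-ps1, at 84.8 and 85.5 in G1E-ER4, against 82.98 and 86.5 in G1E.

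Other genes of ribosome production and translation, and the proteasome, were also open in most cases; differences between these groups were not tested. A promoter peak in all 4 lists was found at all 29 ribosome assembly genes measured, at 75 of 77 mitochondrial ribosomal protein genes (97.4%), at 57 of 63 translation factor genes (90.5%) and at 40 of 42 proteasome subunit genes (95.2%). The nucleolar proteins Ncl and Npm1 were among the stronger: Ncl stood at 94.2 and 99.8 in G1E-ER4, against 99.5 and 99.7 in G1E, and Npm1 at 93.4 and 97.8 in G1E-ER4, against 96.96 and 98.8 in G1E. The median difference between states was -0.33 points for cytosolic ribosomal proteins, against -0.585 for assembly genes, -1.02 for mitochondrial ribosomal proteins, -1.28 for translation factors and -1.56 for the proteasome. With G1E-ER4 list 2 alone it was 1.11 points for cytosolic ribosomal proteins, against 0.834, 0.591, 0.408 and 0.0651 in the same order.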

How the data were processed

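DNase-seq was analysed from 4 peak lists, 2 per state. Per the series design text, tags of 20 bases were aligned to mm9 with Bowtie, tags with more than 1 match kept their best one, the lanes of a replicate were joined, F-seq gave a smoothed density, and a gamma fit gave the peaks; neither tool versions nor read numbers are given in the sources used here. The signal that the authors deposited for each peak has no stated scaling between lists, so it served only as a percentile within its list. The deposited score, p and q columns are constant and were not used.

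Starts were all transcript starts of GENCODE vM1 on mm9. A promoter peak was the strongest peak reaching within 1000 bp of a start, and genes sharing a peak both received it. Differences cover genes with a peak in all 4 lists. Wilson 95% intervals cover counting only. Python 3.11.15, scipy 1.17.1 and pysam 0.24.0 were used, and the steps were tested on simulated data. Members and gene lists were chosen with earlier results of these data known. Genes named were those missing from a list, the 8 highest and 8 lowest, the 8 largest differences each way, stalk proteins and Rpsa, anemia genes, paralogs, and the 5 widest and narrowest; other names were chosen after their values were seen. Alternatives changed the distance, the number of peaks, the starts, the peak taken, the rank, and the lists, chromosomes or members included. Some genes and a sequence are not reported here.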

Additional observations from a re-analysis of the deposited data

How the results depend on the processing

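No paired analysis was possible because each state is 1 sample and the samples have only the replicate number 1 in common. The number of members with a promoter peak in all lists was 66 with the top 20000 peaks and 72 to 74 under the other distances, starts and thresholds. Leaving out each list in turn gave 18 to 37 members ranked higher (26.5 and 49.996% of all genes under the same settings) and 13 to 34 ranked lower (23.04 and 55.3%), where fewer lists have to separate, and 73 to 77 members with a peak in every list left. The median percentile difference then ran from -1.12 to 1.16 points, the highest over the 77 members with a peak in the 3 lists left, and the median log2 width ratio from -0.67 to 0.32, so neither keeps its sign. Ranked among promoter peaks alone, the median difference was 1.71 points (0.341 over all genes), with 22 of 73 members higher (18.9% of all genes) and 10 lower (11.98%); the cause was not tested. Outside chromosomes 7 and 12, 10 members ranked higher, and the share of all genes there is not given. Outside chromosomes 7, 12 and X it was also 10, of 54 members (18.5%, against 14.3% of all genes there). That setting was chosen after seeing the data, like those without X or Rps29. The median summit distance was -23 bp with 1 start per gene. Over the 25 members that separated the states, 385 of 433 values under the alternatives stayed close, 47 moved and 1 changed sign: Rps19, at -31.4 points with the nearest summit. Settings that only drop weaker peaks cannot change the value of a member that stays. Part of the count that stayed close was thus fixed in advance and does not measure robustness. Read depth is unknown, and a percentile gives order, not amount.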
